A study of Rattus norvegicus with 7 samples.

Results

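Skeletal muscle genes were measured in stretched cultures of the fetal rat spinal cord. The list held 41 symbols of the contractile apparatus, the neuromuscular junction and the myogenic factors. It was selected on these same arrays, because muscle genes had been seen to have a lower signal at 2 h than at 0 h. A member was represented by its probe set of highest mean signal over the 7 arrays, provided that the annotation gave that probe set exactly 1 symbol and its mean signal was at least 100. On the array 39 of the 41 had such a symbol (Myf5 and Pax7 were not analysed here), and 25 of these 39 reached the minimum, of 10315 named genes that did so and 14217 named genes in all.

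The cells came from Sprague-Dawley rat embryos of day 15 (E15), from spinal cords freed of dorsal root ganglia and meninges, dissociated and grown in primary culture on flexible membranes. They were stretched by 10% at 0.5 Hz, and RNA was taken at 0 h, before loading, and at 2, 6, 12, 24, 48 and 72 h of stress. RNA from 5 animals was pooled for each time and hybridised to 1 Affymetrix rat array, so that there were 7 arrays and no replicate. No unloaded culture at a later time was analysed here, so hours of stress and hours in culture cannot be told apart. The labels name the tissue as cultured spinal cord cells and do not mention muscle.

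Skeletal muscle fibres form by the fusion of myoblasts, under the control of the transcription factors MyoD (Myod1), Myf5, myogenin (Myog) and MRF4 (Myf6), which bind E-boxes in the promoters of muscle genes. The fibre then builds sarcomeres, in which thick filaments of myosin slide along thin filaments of actin, tropomyosin and troponin between Z discs. Acetylcholine released by the motor axon opens receptors on the fibre, and calcium from the sarcoplasmic reticulum switches the thin filament on.

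Signals are the MAS5.0 intensities of the deposited table, scaled by the authors to the same trimmed mean on each array. The array medians lay between 145 and 162. Signals below 100, where values are uncertain, made up 42.5% to 44.3% of each array. Where 7 values are listed for a gene, they stand in the order of the times, from before loading to 72 h. The controls of beta-actin, read at both transcript ends as a measure of RNA integrity, had 3' to 5' ratios of 1.82, 1.53, 1.83, 1.95, 2.20, 2.54 and 2.62, and that of Gapdh lay between 1.09 and 1.17. The part of RNA integrity in the results on muscle genes was not tested. The ratio of beta-actin was lowest at 2 h and highest at 72 h, and muscle signals were low on both of these arrays. With 1 array per time, no single time could be tested against 0 h. In RNA from a mixed culture, fewer muscle cells and less muscle RNA per cell cannot be told apart.

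The promoters of these genes were examined for the E-boxes that myogenic factors bind. RefSeq (assembly GRCr8) gave the 250 bases before the start of 20 of the 25 genes, and Mybph, Tnnc1, Tnnt3, Srl and Myod1 were not matched. Letters were searched on both strands. The palindromic E-box CAGCTG was found in 8 of the 20 (40%), against 11.9% of the 27457 promoters of the same length. The E-box CAGGTG, with its reverse CACCTG, was found in 6 of 20 (30.0%), against 15.6% of all. The general form CANNTG, which includes both, was in 19 of 20 (95.0%), against 65.2% of all. For MEF2 the letters searched were CTAWWWWTAR and YTAWWWWTAG (W is A or T, R is A or G, Y is C or T). They stood in 3 of 20, Casq2, Klhl41 and Ttn (15.0% against 1.74%). Other forms of the MEF2 site were not searched, so a gene without a match may still hold one. The CArG box stood in Acta1 only (5.0% against 1.5%) and the letters TATAAA in 7 of 20 (35.0% against 13.1%). A match describes the letters and does not show that a factor bound there. The 150 bases before the start are shown for the 5 genes with CAGCTG in this stretch, because MyoD and myogenin, whose genes are in the list, bind E-boxes of this form. They are written 5′ to 3′ on the strand of the gene, with these specific E-boxes in capitals and all other bases in lower case.
Chrna1, acetylcholine receptor alpha subunit (chr3:78877354-78877503, minus strand): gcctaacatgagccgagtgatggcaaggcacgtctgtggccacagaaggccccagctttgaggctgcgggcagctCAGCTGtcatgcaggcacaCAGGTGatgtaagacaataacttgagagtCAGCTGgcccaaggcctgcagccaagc
Atp2a1, calcium pump of fast fibres (chr1:190475411-190475560, minus strand): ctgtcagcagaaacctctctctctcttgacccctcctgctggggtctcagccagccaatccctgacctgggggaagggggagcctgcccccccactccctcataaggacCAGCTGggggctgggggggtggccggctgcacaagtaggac
Des, desmin (chr9:84299476-84299625, plus strand): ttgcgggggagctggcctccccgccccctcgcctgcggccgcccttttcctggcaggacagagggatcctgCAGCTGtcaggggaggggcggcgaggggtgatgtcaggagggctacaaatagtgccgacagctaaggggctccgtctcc
Myl4, embryonic myosin light chain (chr10:89976000-89976149, plus strand): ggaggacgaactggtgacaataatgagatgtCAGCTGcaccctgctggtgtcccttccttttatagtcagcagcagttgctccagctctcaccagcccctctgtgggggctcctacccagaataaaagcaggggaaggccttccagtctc
Mybpc1, slow myosin binding protein C (chr7:24903374-24903523, minus strand): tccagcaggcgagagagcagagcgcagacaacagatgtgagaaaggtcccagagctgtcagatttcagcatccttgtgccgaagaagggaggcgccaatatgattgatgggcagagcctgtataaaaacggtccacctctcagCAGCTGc
Chrna1 had 3 of these E-boxes, beginning 75, 56 and 27 bases before the start, and the other 4 genes had 1 each, beginning 41 (Atp2a1), 79 (Des), 119 (Myl4) and 7 (Mybpc1) bases before it. The signals of these 5 genes are given with their groups.

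The muscle genes had their highest signal before loading and then moved together on successive arrays. The signal at 2 h was below that at 0 h for all 25 genes, against 51.6% of all 17709 probe sets that reached the same minimum. At 6 h it was above that at 2 h for 24, all but Tpm2, against 48.1%. At 12 h it was below that at 6 h for 21, all but Myl1, Tnnt3, Tpm2 and Casq2, against 46.1%. The step at 24 h was less uniform, with 19 genes below their 12 h signal, against 50.6%. At 48 h the signal was above that at 24 h for 21, all but Tnnt3, Tpm2, Casq2 and Srl, against 48.3%. At 72 h it was below that at 48 h for 23, all but Tpm2 and Casq2, against 46.8%. The sequence down at 2 h, up at 6 h, up at 48 h and down at 72 h was shown by 21 of the 25, against 5.88% of all probe sets. The genes were chosen by their change from 0 h, so the counts at 2 h are a description. All later steps share their arrays with that choice and carry no test.

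**Figure D1:**
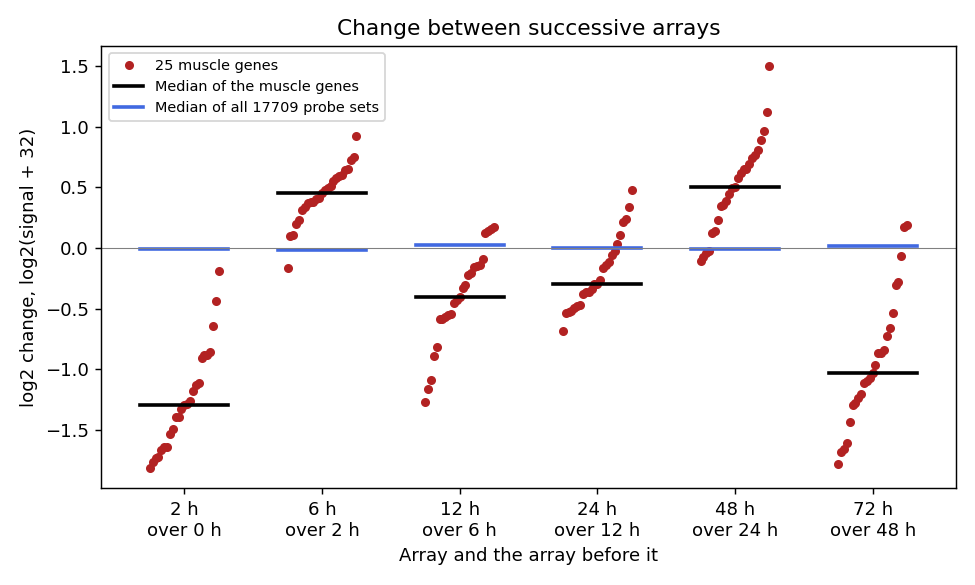
Change of log2(signal + 32) between each array and the array before it (vertical axis) for the 25 muscle genes (red points, in order of size), with their median (black line) and the median of all 17709 probe sets (blue line). The medians of the muscle genes lie at -1.29, 0.45, -0.40, -0.29, 0.50 and -1.03, while those of all probe sets lie close to 0.

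The median change from 0 h over the 25 genes, on the scale log2(signal + 32), which understates changes at low signals, was -1.29 at 2 h, -0.83 at 6 h, -1.35 at 12 h, -1.47 at 24 h, -0.86 at 48 h and -1.66 at 72 h. The medians of all probe sets stayed between -0.04 and 0.01. The median ratio of signal to 0 h was 0.363 at 2 h, 0.542 at 6 h, 0.380 at 12 h, 0.326 at 24 h, 0.517 at 48 h and 0.255 at 72 h. Muscle signals thus had low points at 2, 24 and 72 h, and partial returns at 6 and 48 h that did not reach the 0 h level for 24 of the 25 genes. The signal at 0 h was the highest of the 7 for these 24 genes, against 21.6% of all probe sets. Tnni2, the inhibitory troponin of fast fibres, was the exception, with signals of 258, 182, 283, 147, 139.8, 212 and 87.1. The lowest of the 7 signals stood at 72 h for 17 genes, at 2 h for 4 (Myh3, Myl1, Tnni1 and Casq2), at 24 h for 3 and at 48 h for 1 (Tpm2).

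A size threshold, a ratio to 0 h of at most 0.5 together with a difference of at least 200, was taken from the methods of the study. At 2 h 15 of the 25 genes were past it in the lower direction, against 0.824% of all probe sets. At 6 h 11 were past it, against 2.13%, at 12 h 16, against 2.98%, and at 24 h 18, against 2.28%. At 48 h 10 were past it, against 5.30%, and at 72 h 19, against 6.16%. None was past it in the higher direction at any time, against 5.75% of all probe sets at 1 or more times. Myl4, Myl11, Mybph, Tnnc2, Tnnt1, Actn2 and Srl were past it at all 6 later times. The share of all probe sets past it at all 6 times was not computed. Each of the 6 comparisons uses the same 0 h array, so they are not independent. Tnni2, Tpm2, Ttn, Des, Klhl41 and Casq2 never were.

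A linear change with hours was fitted with limma over all 17709 probe sets, in which the spread is that around a line over time and not between replicates. By this test 6 of the 25 genes fell at an adjusted p under 0.05, none rose and 19 did not pass. Over all probe sets 14.1% fell and 15.0% rose. At an unadjusted p under 0.05, 11 of the 25 were lower and none was higher. The count of 6 was 0 without the 72 h array, 2 without the 6 h array, 4 without the 24 h array and 9 without the 48 h array. Srl, 1 of the 6, and Mybpc1 reached the minimum only through the 0 h array, which favours a lower signal later. Of the other 23 genes 5 fell and none rose, and 14 were past the size threshold at 2 h and 17 at 72 h. At all 6 later times 6 were past it, again with no share computed over all probe sets. These genes were chosen on the same arrays, so the count is not independent evidence of their direction.

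**Figure D2:**
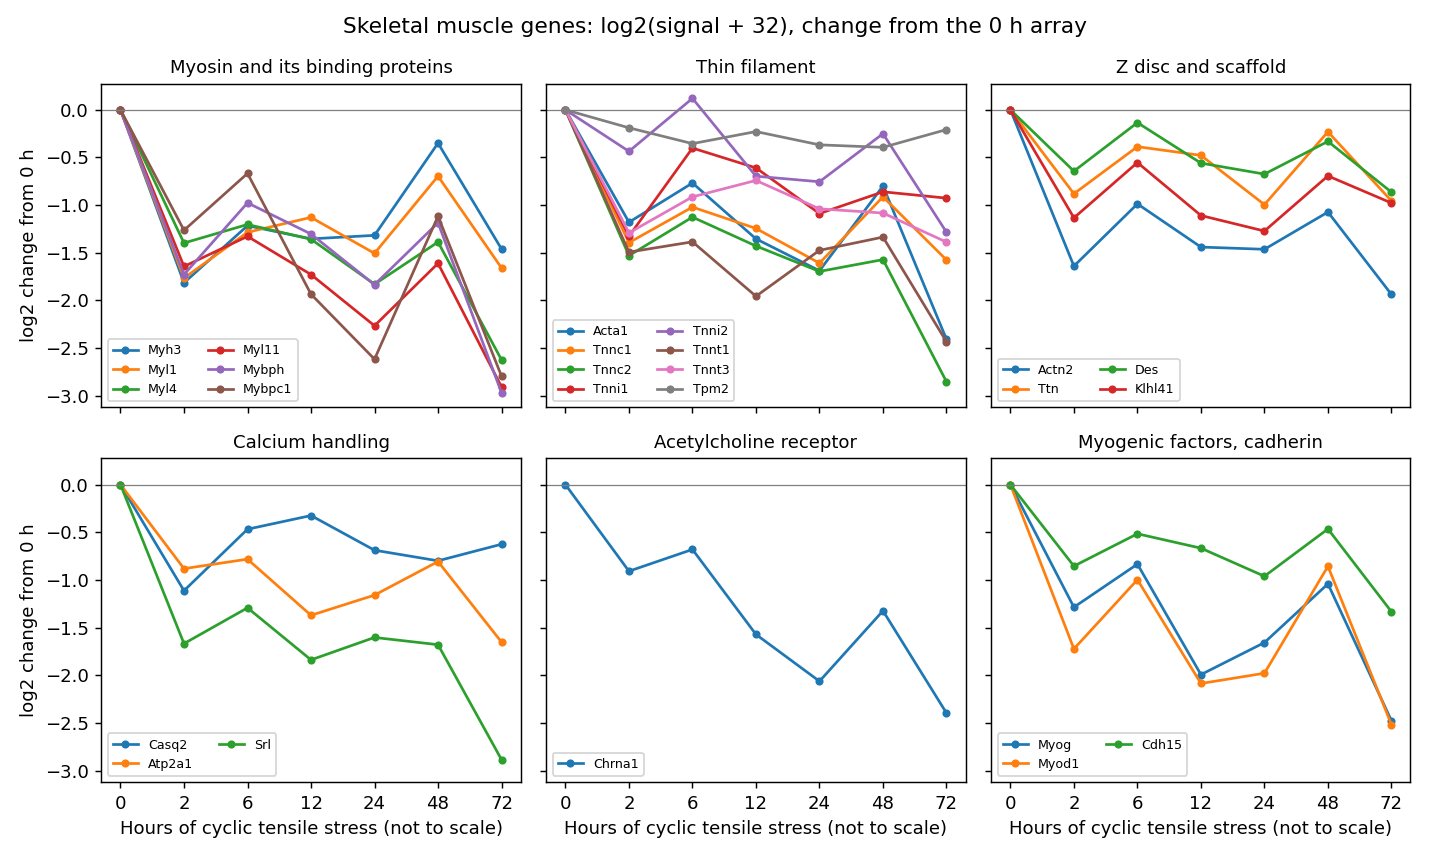
Change from the 0 h array of log2(signal + 32) (vertical axis) at each time of stretching (horizontal axis, hours, not to scale), with 1 line per gene and 1 panel per functional group. Most lines share low points at 2, 24 and 72 h and high points at 6 and 48 h, and Tpm2 stays between 0 and -0.5.

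Myosin and its binding proteins make up the thick filament. Of 8 listed genes 6 reached the minimum, 5 of them were past the size threshold at 2 h and 6 at 72 h, and their median log2 change was -1.69 at 2 h and -2.71 at 72 h. Myl11, the regulatory light chain of fast fibres, had signals of 2610.2, 814, 1021, 765, 518, 833 and 320.3 from 0 to 72 h. Its signal was highest at 0 h, partly returned at 6 and 48 h and was lowest at 72 h, and it fell by 1.70 on the log2 scale over 72 h (standard error 0.53, adjusted p = 0.0371, limma). Myh3, the embryonic myosin heavy chain, had signals of 1797, 488, 756, 684, 702, 1404 and 633. Its 48 h signal was the nearest to that at 0 h, its 2 h signal was the lowest of the 7, and the line over time was flat (-0.08, standard error 0.55, adjusted p = 0.933, limma). At 2 h it had the most negative log2 change of the 25, -1.81. Myl1, the essential light chain of fast fibres, had signals of 1869, 527, 748, 838, 637, 1142 and 570.1. Like Myh3 it was lowest at 2 h and high again at 48 h, and it did not pass the trend test (adjusted p = 0.579, limma).

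Myl4, the light chain of embryonic muscle and atrium whose promoter is shown above, had signals of 1225, 445, 514, 458, 322, 449 and 172. It was past the threshold on each later array, and fell by 1.57 (standard error 0.45, adjusted p = 0.0257, limma). Mybph, myosin binding protein H, had signals of 402, 98.8, 188, 144, 89.5, 159 and 23.4. It had the most negative log2 change of the 25 at 72 h, -2.97, with a 72 h signal low enough to be uncertain, and fell by 1.72 (standard error 0.56, adjusted p = 0.0433, limma). Mybpc1, a myosin binding protein of slow fibres, had signals of 301, 107, 178, 55.3, 22.4, 122 and 16.1. It swung further than the others between 24 and 48 h, at signals near or below 100, and its trend did not pass (adjusted p = 0.0927, limma). Its mean over the 6 later arrays was 83.4, so that it reached the minimum only through the 0 h array, as did Srl with 88.9. Of the myosins under the minimum, Myh7, of slow fibres and heart, had signals between 2.44 and 47.3, and Myh8, the perinatal heavy chain, between 6.96 and 97.7.

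The thin filament was measured in full, with 8 of 8 genes. At 2 h 6 of them were past the threshold, at 72 h also 6, and the median log2 change was -1.31 at 2 h and -1.48 at 72 h. Acta1, the skeletal alpha-actin, had signals of 4152, 1815, 2426, 1605, 1266, 2372 and 757. The signal at 6 h was close to that at 48 h, both lay above those of the other later arrays, and the trend did not pass (-1.36, standard error 0.48, adjusted p = 0.0570, limma). Tnnc1, the calcium sensor of slow fibres and heart, had signals of 1064, 385, 508, 431, 327, 550.2 and 336. Its 24 and 72 h signals were alike, and it did not pass (adjusted p = 0.316, limma). Tnnc2, the calcium sensor of fast fibres, had signals of 821, 263, 359, 285, 231, 255 and 86.0. It showed almost no return at 48 h and fell by 1.79 (standard error 0.45, adjusted p = 0.0150, limma). Of the other troponins, which hold the thin filament off in the absence of calcium, Tnnt1 and Tnni1 are of slow fibres and Tnni2 and Tnnt3 of fast fibres. Their ratios to 0 h lay between 0.321 (Tnnt1) and 0.707 (Tnni2) at 2 h and between 0.142 (Tnnt1) and 0.499 (Tnni1) at 72 h, and none of the 4 passed the trend test.

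Tpm2, the beta-tropomyosin, which smooth muscle and fibroblasts also make, stood apart. Its brighter probe set had signals of 2814, 2465, 2194, 2398, 2174, 2134 and 2433, and its log2 change was the smallest of the 25 at 2 h (-0.19) and at 72 h (-0.21). A dimmer probe set of the same gene had signals of 659, 231, 264, 207, 225, 324 and 177. That course was high at 0 h and again at 48 h and low at 2 and 72 h, as in the other muscle genes. The correlation with the mean profile of the 25 genes over the 7 arrays was 0.442 for the brighter probe set and 0.946 for the dimmer. Which transcripts each probe set reads was not tested. The dimmer probe set of Tnni1 had signals of 465, 135, 178, 201, 136, 258 and 253, with low points at 2 and 24 h like its brighter probe set. Of the 25 genes 4 had a further probe set, and those of Casq2 and Tnnt3 had mean signals of 63.2 and 21.2, under the minimum.

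**Figure D3:**
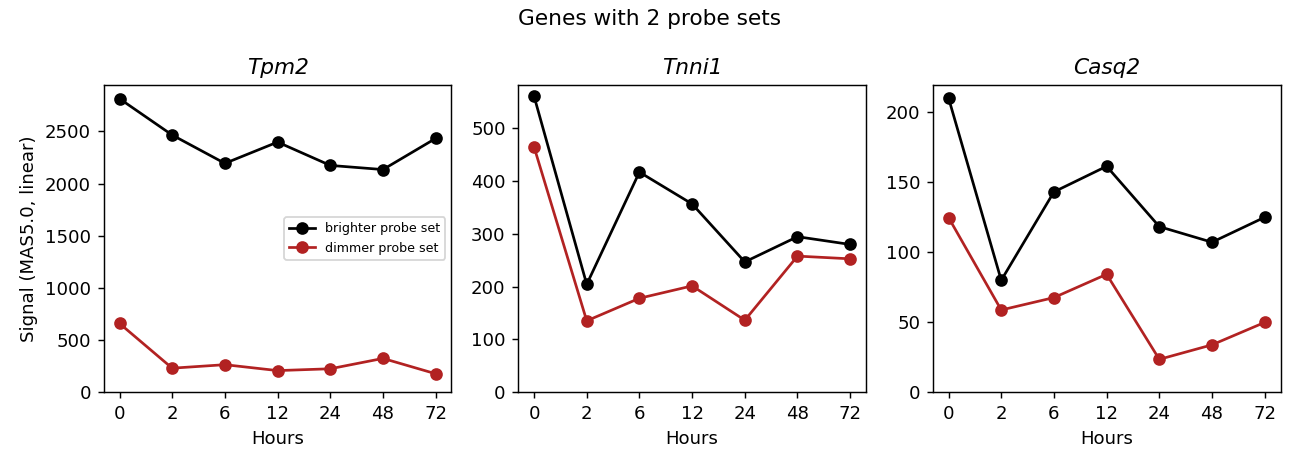
Signal (vertical axis, MAS5.0 intensity on a linear scale) of the brighter (black) and the dimmer (red) probe set of Tpm2, Tnni1 and Casq2 at each time (horizontal axis, hours, not to scale). The dimmer probe set of Tpm2 has 231 at 2 h and 659 at 0 h, while the brighter has 2465 at 2 h and 2814 at 0 h.

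The Z disc and its scaffold anchor the thin filaments and tie neighbouring myofibrils together. Of 6 listed genes 4 reached the minimum, 1 was past the threshold at 2 h and at 72 h (Actn2), and the median log2 change was -1.01 at 2 h and -0.97 at 72 h. Actn2, the alpha-actinin that crosslinks actin at the Z disc, had signals of 479, 132, 226, 157, 153, 211 and 102. Every later signal was below the 0 h signal by more than 200. Des, desmin, the intermediate filament of muscle, had signals of 947, 595, 860.4, 633, 582, 747 and 506. Its swings followed the same order as those of the other genes but were shallower, with ratios of 0.628 at 2 h and 0.534 at 72 h. Klhl41, an adaptor protein of the sarcomere, had signals of 302, 120.2, 196, 123, 106, 174 and 138. Ttn, titin, the spring of the sarcomere, lay between 73.3 and 178. None of the 4 passed the trend test, with adjusted p between 0.196 (Des) and 0.602 (Klhl41) in limma. Ldb3, a Z disc protein, was under the minimum in each of its 6 probe sets, and Myoz2 (calsarcin-1) had signals of at most 12.6.

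Calcium handling and energy supply were measured through 3 of 8 listed genes. Srl, sarcalumenin, a calcium binding protein of the sarcoplasmic reticulum, had signals of 376, 96.3, 134, 82.0, 102, 95.3 and 23.2. It stayed low at 48 h, where most others returned, and fell by 1.68 (standard error 0.52, adjusted p = 0.0345, limma). Its mean over the 6 later arrays was 88.9, so it reached the minimum only through the 0 h array, which favours a fall. Atp2a1, the calcium pump of fast fibres, had signals of 343, 171, 186, 113, 136, 182 and 87.3. Casq2, the calsequestrin of heart and slow fibres, which stores calcium, had signals of 210.0, 79.9, 143, 161, 118, 107 and 125. Its course after 2 h differed from that of most other genes, with a high point at 12 h in place of 48 h. Tnnt3 had such a course too, with 209 at 12 h and 158 at 48 h. Neither Atp2a1 (adjusted p = 0.125) nor Casq2 (adjusted p = 0.639) passed the trend test in limma. Ckm, the creatine kinase of muscle, had a mean of 95.0, just under the minimum, and signals of 257, 99.4, 103, 97.8, 42.6, 60.8 and 4.59. Ryr1, the calcium release channel, had signals between 19.1 and 80.1. The calcium channel subunits Cacna1s and Cacng1 and the calsequestrin Casq1 also lay under 100 on all arrays.

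The acetylcholine receptor was represented by its alpha subunit. Chrna1 had signals of 375, 185, 222, 105, 65.5, 131 and 45.4. The signal was lower at 12 and 24 h than at 2 h, unlike that of Myh3 or Myl1, and Chrna1 fell by 1.65 (standard error 0.49, adjusted p = 0.0304, limma). Chrnd, the delta subunit, had a mean of 88.7 and signals between 52.0 and 157. The beta subunit Chrnb1 lay between 28.2 and 86.9, and Chrng, the gamma subunit of the fetal receptor, between 7.12 and 22.6. Musk, the kinase that clusters the receptors, lay between 11.2 and 79.8.

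Of the myogenic factors and the satellite cell genes, 3 of 6 reached the minimum, with a median log2 change of -1.29 at 2 h and -2.48 at 72 h. Myog, myogenin, which drives the differentiation of myoblasts, had signals of 2541, 1023, 1411, 614, 784, 1218 and 430.1. Its low point between the returns came at 12 h and not at 24 h, and the trend did not pass (-1.34, standard error 0.54, adjusted p = 0.0884, limma). Myod1, which commits cells to the muscle lineage, had signals of 594, 157, 281, 115, 127, 313 and 77.2. It moved in the same direction as Myog on every array, and did not pass either (-1.08, standard error 0.66, adjusted p = 0.245, limma). Cdh15, the M-cadherin by which myoblasts adhere, had signals of 306, 155, 204, 181, 141, 213 and 102, with a shallower course. Myf6 (MRF4), of more mature fibres, had signals of 39.4, 20.3, 16.01, 23.4, 32.4, 27.7 and 19.6, too low for an order of its values.

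**Figure D4:**
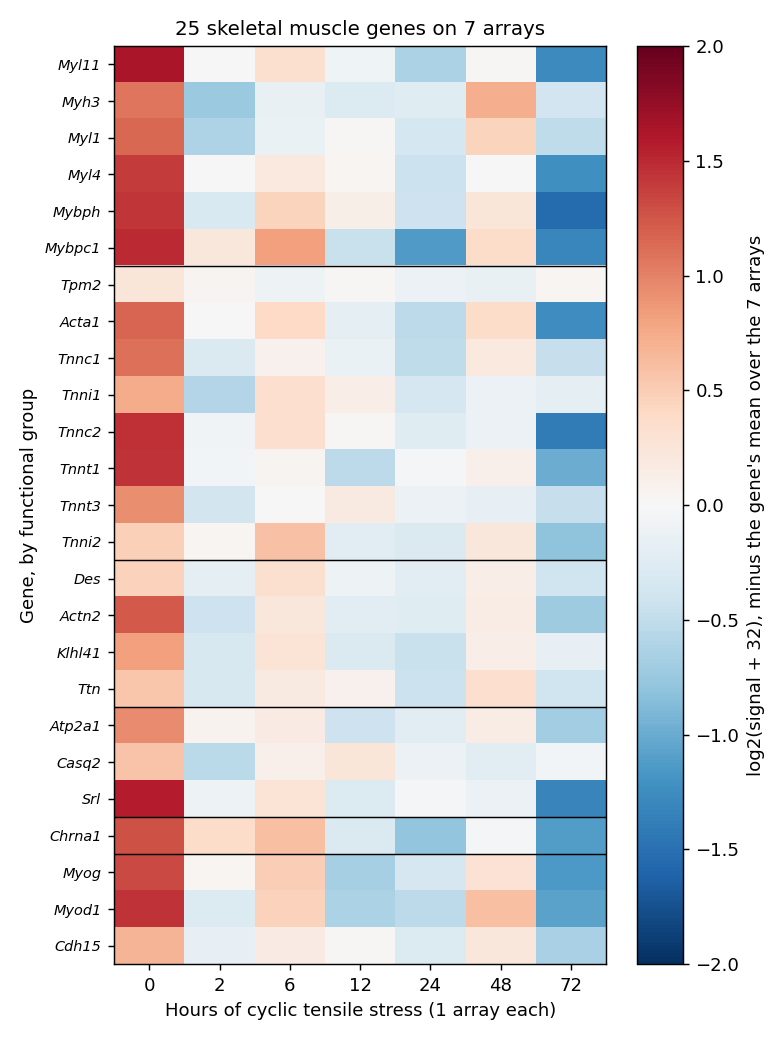
Heat map of log2(signal + 32) minus each gene's own mean over the 7 arrays (colour scale, log2 units, red above and blue below the mean) for the 25 muscle genes (rows, by functional group) on the 7 arrays (columns, hours of cyclic tensile stress). The 0 h column is the highest of its row in 24 of the 25 rows, and the 72 h column the lowest in 17.

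The 14 genes under the minimum showed the same sequence in part, at signals where single values are uncertain. At 2 h 11 of them were below 0 h, at 6 h 11 were above 2 h, at 48 h 12 were above 24 h and at 72 h 13 were below 48 h. The whole sequence was present in 9 of the 14, and 8 had their highest signal at 0 h. The shares given above are of probe sets that reached the minimum. No such share was computed for probe sets under it, so these counts are only a description. The means nearest the minimum were 115 for both Mybpc1 and Ttn above it, and 95.0 for Ckm, 88.7 for Chrnd and 82.6 for Ldb3 below it.

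The correlation of a muscle gene with the mean of the other 24, over the 7 arrays, had a median of 0.945 and reached 0.981 (Myl11). It was at least 0.9 for 16 of the 25, and lowest for Tpm2 (0.434) and Casq2 (0.586). These values describe 7 shared arrays. Among 2241 named genes with a log2 range of at least 1 over the arrays, 13 outside the list had a correlation of at least 0.9 with the mean profile of the 25. The 12 nearest were Cav3 (0.964), Sln (0.959), Dlk1 (0.952), Arhgap33 (0.949), Sfrp4 (0.936), Rbm24 (0.935), Actg2 (0.933), Fmo1 (0.931), Synpo2l (0.930), Cavin2 (0.927), Rnf208 (0.922) and Mest (0.913). Cav3 is the caveolin of muscle, Sln (sarcolipin) inhibits the calcium pump, and Rbm24 is an RNA binding protein of muscle. Cav3 had signals of 254, 82.8, 154, 53.4, 64.7, 112 and 31.99, and Sln of 269, 108, 180.2, 138, 94.5, 177 and 90.4. Both were thus high at 0 h, with partial returns at 6 and 48 h, like the listed genes.

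Further genes of skeletal muscle were read from 5 lists of 111 genes that are not members. Of 95 on the array 48 reached the minimum, and by the trend test 5 fell, 3 rose and 40 did not pass. Over all probe sets 14.1% fell and 15.0% rose, so these counts of the trend test do not set the further genes apart. At 2 h the signal of 40 of the 48 was below that at 0 h, against 51.6% of all probe sets. At 2 h 2 of the 48 were past the size threshold in the lower direction, Tnnt2 and Cacna2d1, against 0.824% of all probe sets. At 72 h 8 were, against 6.16%. The median log2 change of the 48 was -0.24 at 2 h and -0.24 at 72 h. Most of the further genes thus shared the direction at 2 h, but as a whole not the size of the change in the 25 members. Mymk, myomaker, which fuses myoblasts, had 49.7 at 72 h and 429 at 0 h and fell (adjusted p = 0.0103, limma). Mef2c, a transcription factor of muscle and of neurons, Igf2, a growth factor, Rbm24 and Dok7, an activator of Musk, fell as well. Those that rose were Trim54, a ubiquitin ligase of the sarcomere, Mef2d, a relative of Mef2c, and Id1, which inhibits the myogenic factors. Tnnt2, the troponin of heart and embryonic muscle, had 363 at 72 h and 1066 at 0 h. The brightest of 5 probe sets annotated as Myh1, an adult fast myosin, had signals of 3742, 2718, 3684, 4261, 4894, 4548 and 4853. It did not follow the members, and the dimmer ones were not read. The adult myosins Myh2 and Myh4 were under the minimum, with means of 20.3 and 13.5. Many of these further genes are made in other cells too, and the part of such cells in their signals was not tested.

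Other cell types were compared only through their marker lists. None of 9 heart genes on the array reached the minimum, and their highest mean was 52.2. Of 17 genes of smooth muscle and pericytes 11 did, with summed signals between 13711 and 17569. Their medians lay between -0.32 and -0.06 on the log2 scale, and their mean profile had a correlation of 0.226 with that of muscle. By the trend test 1 of the 11 fell (Acta2) and 1 rose (Myh11), against 14.1% and 15.0% of all probe sets. Actg2 of this list, also among the 12 nearest genes above, had ratios to 0 h of 0.499 at 24 h and 0.436 at 72 h. The summed signal of the 25 muscle genes was 25498, 10919, 13978, 10909.6, 9426, 13842 and 7632. Of 17 genes of cartilage, tendon and sclerotome 5 reached the minimum, with medians between -0.42 and -0.03. Neuronal genes were also lower at 2 h, with 15 of 19 measured and a median of -0.69. At 2 h 3 of the 15 were past the threshold in the lower direction, against 0.824% of all probe sets. At 72 h 12 of the 15 were past it, against 6.16%, where 19 of the 25 muscle genes were. The neuronal genes differed from the muscle genes in the later order, with medians of -1.19 at 24 h, -1.99 at 48 h and -1.49 at 72 h. The muscle genes had -1.47, -0.86 and -1.66 at these times. Of 10 listed genes of motor neurons, whose axons reach muscle, 2 reached the minimum (Prph and Slit2), while Isl1, Isl2, Lhx4, Chat, Slc18a3 and Slc5a7 did not. All 13 measured cell cycle genes fell by the trend test, against 14.1% of all probe sets. Their medians were -0.20 at 2 h, -1.63 at 48 h and -2.27 at 72 h. At 72 h 11 of the 13 were past the threshold in the lower direction, against 6.16% of all probe sets. The 12 measured genes of fibroblasts and meninges had medians of -0.13 at 2 h, -0.58 at 48 h and -0.48 at 72 h. The part of these cell types in the signals of the muscle genes was not tested.

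**Figure D5:**
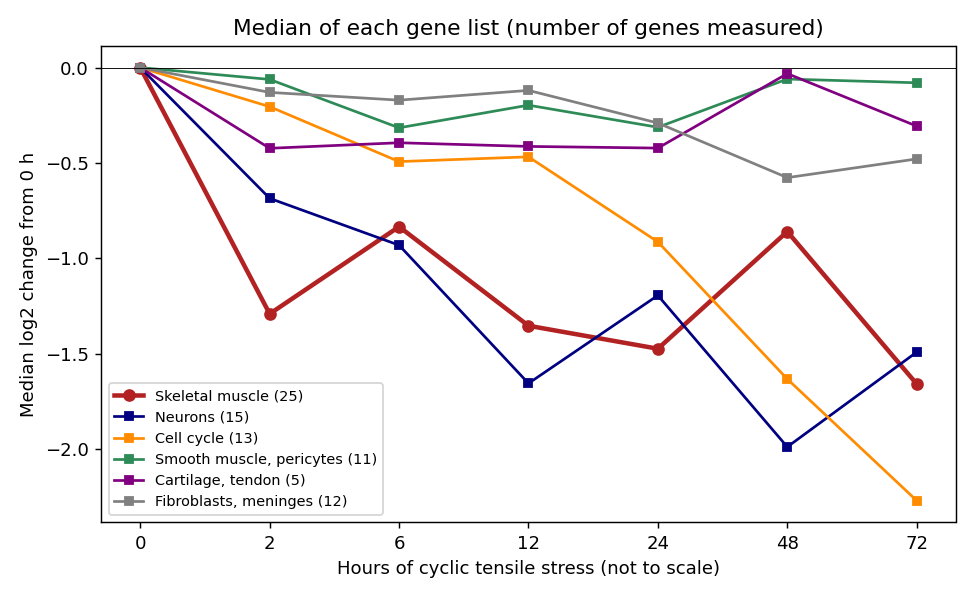
Median change from 0 h of log2(signal + 32) (vertical axis) at each time of stretching (horizontal axis, hours, not to scale) for the skeletal muscle genes (25, thick red line) and for 5 marker lists of other cells, with the number of genes measured in the key. At 48 h the muscle median returns to -0.86, while the neuronal median is at -1.99 and the smooth muscle median at -0.06.

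Some of the genes are neighbours in the rat genome, by their order in RefSeq (GRCr8). Chrnd and Chrng are adjacent on chromosome 9, and Myf5 and Myf6 on chromosome 7. On chromosome 13 Mybph and Myog have 1 coding gene, Adora1, between them. Myh3 and Myh8 have Myh2, Myh1 and Myh4 between them on chromosome 10. Of this cluster Myh3 and the brightest probe set annotated as Myh1 had the unlike courses given above. Tnni2 and Tnnt3, the fast troponins I and T, are separated by 5 coding genes on chromosome 1, and their 2 h signals were 0.707 and 0.358 of those at 0 h.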

How the data were processed

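Total RNA of the cultures was labelled as biotinylated cRNA and hybridised to 7 GeneChip arrays. The authors processed the arrays in GCOS and deposited a MAS5.0 signal intensity for each of 31099 probe sets, scaled globally to a trimmed mean of 500. Background subtraction in MAS5.0 makes low signals uncertain. From these intensities, 57 controls were left out and ratios to 0 h were computed for 31042 probe sets. The deposited table held no columns of the authors' own comparisons.

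Gene names were those of the platform annotation (20826 with 1 symbol, 436 with several, 9780 not named). Linear change with hours was tested, two-sided, by lmFit and eBayes (trend = TRUE) of limma 3.58.1 in R 4.3.3. The fit used log2(signal + 32) of the 17709 probe sets whose mean signal was 100 or more, with Benjamini-Hochberg adjustment over all of them, after a test on simulated data. The 5 residual degrees of freedom and the number of arrays limit the precision. Counts, medians and correlations were obtained in Python 3.11.15 (numpy 2.4.6, pandas 2.3.3) and drawn with matplotlib 3.10.9. Promoters came from RefSeq (GRCr8).

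The members, the lists and the promoter motifs were chosen with earlier results of these data known, and the E-boxes shown were chosen after the motif counts were seen. Values on all arrays were given for the 3 members of highest mean signal in each group, all measured myogenic factors, the members with the largest and smallest log2 change at 2 and 72 h, and, chosen after their values were seen, the other members that passed the trend test, Tnni2, Mybpc1 and Ckm. Outside the list, the 12 genes of highest correlation and up to 3 genes per list past the size threshold were named, with those that passed the trend test and Myh1 chosen after their values were seen. The lists read were further muscle genes (contractile, Z disc, calcium and energy, membrane and junction, regulators) and markers of smooth muscle, heart, cartilage and tendon, motor neurons, neurons, astrocytes, oligodendrocyte lineage, microglia, fibroblasts, endothelium, Schwann cells and cell cycle. The alternatives were other pseudocounts, filters, thresholds, baselines, scalings and forms of time, and each array, or group of members, left out. A baseline at 6 h and a minimum mean signal over the 6 later arrays alone were added after seeing the data.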

Additional observations from a re-analysis of the deposited data

How the results depend on the processing

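No paired analysis was possible because each time had 1 array and no replicate. A reversal was defined for medians only, so no count could reverse. Of 88 alternative values, 0 reversed and 15 moved, by a factor of over 1.5 for a count or by over 0.2 for a median. Counts were compared as numbers, also where the number of members differed, so for them this tally does not compare shares. The other 73 stayed within these limits, and they include the counts of members that rose, which were 0 in every setting. Among the other counts within these limits, 4 of 39 members fell with no filter and 4 of 25 with no intensity trend. At 2 h 20 were at a ratio of at most 0.5 when no difference was required. With log2(hours + 1) or the rank of the time in place of hours 11 members fell, and with a mean signal of at least 200, 3 of 14 did, in place of 6 of 25. With each array left out in turn, between 0 and 9 fell, and none rose. With a mean signal of at least 200, 12 of the 14 remaining members were past the size threshold at 72 h, in place of 19 of 25. This count moved only because fewer members were read. The median log2 change at 72 h was -2.17, in place of -1.66. That median was -1.28 with the mean of the 0 and 2 h arrays as baseline and -1.39 over all 39 members on the array. It was -1.94 without the thin filament group and -2.40 without the Z disc group. With the 6 h array as baseline, chosen after seeing the data, 1 member was past the threshold at 2 h in place of 15, and 6 at 72 h, with medians of -0.45 at 2 h, in place of -1.29, and -0.95 at 72 h. The 0 h array is the only one of its time. The cause of these differences was not tested.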

Other observations

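Markers of glia, microglia and vessels were read for the same arrays. Of 11 genes of microglia and macrophages 10 were measured, and 7 of them fell and none rose by the trend test. Over all probe sets 14.1% fell and 15.0% rose, which is the share to set beside each count here. Of 9 astrocyte genes 8 were measured and 1 fell, of 9 genes of the oligodendrocyte lineage 6 were measured and 1 fell, and of 9 genes of Schwann cells 3 were measured and 1 fell. Of 7 endothelial genes 2 reached the minimum. The mean log2 profiles of these lists correlated with the mean muscle profile over the 7 arrays at 0.150 for astrocytes, 0.513 for microglia and 0.541 for the oligodendrocyte lineage. For Schwann cells the value was -0.049. Of the lists compared further above, neurons had 0.679, the cell cycle 0.636, and cartilage, tendon and sclerotome 0.550. Fibroblasts and meninges had 0.369, and smooth muscle and pericytes 0.226. Among the muscle genes outside the list the correlation was 0.964 for membrane and junction and 0.919 for contractile genes. It was 0.788 for regulators, 0.733 for calcium and energy and 0.030 for the Z disc. These are values of list means and do not show that each gene followed the members. The sequence down at 2 h, up at 6 h, up at 48 h and down at 72 h was less common. It was shown by 2 of 11 membrane and junction genes, 2 of 8 contractile genes and 0 of 15 regulators. Of the calcium and energy genes 2 of 8 showed it, and of the Z disc genes 2 of 6, against 5.88% of all probe sets.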
